A study of Mus musculus with 6 samples.

Results

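The 10 genes described here, Tnfaip3, Tnip1, Zc3h12a, Ier3, Birc2, Birc3, Traf1, Ikbke, Map3k8 and Tnfaip2, encode feedback proteins, adaptors and kinases of the NF-κB pathway other than the IκB proteins. They were chosen by gene symbol, and each matched 1 row of the 54532 genes in the deposited expression table. RNA was sequenced from brain microvascular endothelial cells (BMVECs), which line the small vessels of the brain. These were primary cultures from wild-type C57BL/6J mice, grown from vessel fragments under puromycin, which was removed before the cells became confluent. The untreated group (3 libraries, named A0, B0 and D0) received no cytokine, and the labels give it no vehicle and no time, so an effect of the cytokine and one of culture time cannot be told apart. The IL-36β group (3 libraries, A24, D24 and E24) received processed DEVD mIL-36β, a mouse cytokine of the IL-1 family, at 100 ng/ml for 24 hours. The labels name neither the age nor the sex of the mice. Nor do they state if each library is its own animal or culture, and the p-values therefore reflect only the spread between libraries, which may be technical.

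NF-κB is a family of transcription factors that IκB proteins hold in the cytoplasm until IκB kinases mark IκB for breakdown. Receptors of the IL-1 family and of TNF reach these kinases through ubiquitin chains built on adaptor proteins by TRAF proteins and the cellular inhibitors of apoptosis. NF-κB in turn switches on genes that cut the signal short, by removing or hiding ubiquitin chains or by degrading inflammatory mRNAs. In endothelium this pathway is known for inducing adhesion molecules and chemokines.

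Of the 10 genes, 1 rose with IL-36β: Tnip1, by 2.45-fold (95% confidence interval 1.86 to 3.21, limma adjusted p = 0.0485, n = 3 per group), where 0.166% of the 12618 genes tested were called higher. In these bulk libraries more cells with a transcript and more transcript per cell cannot be told apart. None of the 10 was called lower, where 0.0159% of all genes tested were. All 10 passed the filter on low values, and all 10 fitted fold changes were above 0, as were 50.5% of all genes tested. Their median log2 fold change was 0.73, beside 0.00 over all genes tested. In 8 genes every IL-36β library was above every untreated library, where this was so for 8.95% of all genes tested. Without untreated replicate 3 it was 8 genes, beside 16.2% of all genes, but leaving out a library cannot lower this count. No gene of the 10 was then called, where 0.0563% of all genes tested were called higher. An unadjusted limma p under 0.05 with a higher level was found for 8 of the 10 and for 5.96% of all genes tested.

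Levels are in FPKM, here reads scaled by gene length and by 1 factor per library, so they can be compared between genes. Each fold and its interval come from log2(FPKM + 0.5) values, on which low genes appear to change less than they do, and a call is a Benjamini-Hochberg adjusted p under 0.05 over all genes tested. The libraries held 15180389 to 19544689 reads assigned to genes. Of the 9 endothelial markers, 8 passed the filter on low values. The levels of all 9 summed to 1957 to 2297 FPKM in the untreated and 2019 to 2500 FPKM in the IL-36β libraries. The brain endothelial transporter Slco1c1 stayed under 0.5 FPKM in every library. Log2 fold changes were 0.73 for Cldn5, 0.51 for Tek, 0.22 for Erg, 0.15 for Pecam1, 0.03 for Ocln and 0.02 for Cdh5. Kdr and Emcn had -0.32 and -0.09. Among the 8, only Tek was higher in every IL-36β library than in every untreated one, as were 8.95% of all genes tested. Tek was named after its values were seen and was not called (limma adjusted p = 0.362). Of the 7 microglia and macrophage markers, 6 stayed under 0.5 FPKM in every library, Tyrobp was at 0, and the summed level, nearly all of it Cd68, was 6.87 to 7.80 FPKM without and 6.87 to 9.34 FPKM with IL-36β. All 4 neuron and all 5 oligodendrocyte markers stayed under 0.5 FPKM, as did 4 of 5 astrocyte and 3 of 6 fibroblast markers, whose summed levels were at most 1.72 and 3.56 FPKM. Of the 9 mural markers, 6 passed that filter, and the sum over all 9, mostly Acta2, was 421, 742 and 1399 FPKM over the untreated replicates in order and 376, 828 and 534 FPKM over those with IL-36β. In 2 of these 6, named after their values were seen, every IL-36β library was below every untreated one, where this was so for 7.24% of all genes tested. The contractile genes Myh11 (6.54, 11.6 and 6.02 against 4.60, 3.90 and 2.055 FPKM, limma adjusted p = 0.315) and Cnn1 (23.5, 37.9 and 40.6 against 19.3, 21.7 and 9.59 FPKM, limma adjusted p = 0.360) had log2 fold changes of -1.09 and -1.03. Of the others past the filter, Acta2 and Pdgfrb had -0.46 and -0.07, and Tagln and Des 0.18 and 0.27, each with overlapping groups. The part of the mural markers in the results was not tested.

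An untreated library, replicate 3 (library D0), stood apart for these genes. It held the lowest untreated level of 9 of the 10, where it was lowest for 37.2% of all genes tested. It also had the highest sum of mural markers, whose part in the low levels was not tested. Among the IL-36β libraries, replicate 1 (A24) was highest for 8 of the 10, beside 31.3% of all genes tested. By the letters of their names the libraries form an A/B set, of A0, B0 and A24, and a D/E set, of D0, D24 and E24. The labels do not say what the letters mark, and the split into sets was made with these values known, so a fit that includes the set may overstate the evidence. Within each set 1 group is a single library. All 10 genes were higher with IL-36β inside both sets, beside 31.7% of all genes tested.

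Promoter windows are shown for 6 of the genes: the 4 in which the NF-κB consensus site was found, and Zc3h12a and Ikbke, which had the largest fold changes of the 10 and no match. Each window runs from 250 bases before to 50 bases after the start site in RefSeq (build GRCm38.p6). It is read 5′ to 3′ on the strand of the gene. Capitals mark matches on either strand to the consensus GGGRNNYYCC, where R is A or G, Y is C or T and N is any base. Only this exact pattern was searched, so similar sites that differ from it stay in lower case. The windows are chr11:54962891-54963190 on the minus strand for Tnip1, chr10:19015361-19015660 on the minus strand for Tnfaip3, chr17:35821463-35821762 on the plus strand for Ier3, chr12:111442411-111442710 on the plus strand for Tnfaip2, chr4:125127832-125128131 on the minus strand for Zc3h12a and chr1:131279514-131279813 on the minus strand for Ikbke.
Tnip1 promoter: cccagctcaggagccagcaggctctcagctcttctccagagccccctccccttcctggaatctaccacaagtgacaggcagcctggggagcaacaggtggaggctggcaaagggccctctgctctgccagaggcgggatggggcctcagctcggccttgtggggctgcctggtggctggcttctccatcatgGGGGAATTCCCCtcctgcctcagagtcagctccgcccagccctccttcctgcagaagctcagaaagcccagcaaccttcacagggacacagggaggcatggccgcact
Tnfaip3 promoter: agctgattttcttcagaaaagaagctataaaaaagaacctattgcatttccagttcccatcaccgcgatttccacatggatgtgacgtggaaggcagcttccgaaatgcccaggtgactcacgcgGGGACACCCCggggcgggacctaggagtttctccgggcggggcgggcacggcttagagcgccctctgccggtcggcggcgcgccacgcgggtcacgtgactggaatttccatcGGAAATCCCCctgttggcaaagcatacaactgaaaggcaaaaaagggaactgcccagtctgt
Ier3 promoter: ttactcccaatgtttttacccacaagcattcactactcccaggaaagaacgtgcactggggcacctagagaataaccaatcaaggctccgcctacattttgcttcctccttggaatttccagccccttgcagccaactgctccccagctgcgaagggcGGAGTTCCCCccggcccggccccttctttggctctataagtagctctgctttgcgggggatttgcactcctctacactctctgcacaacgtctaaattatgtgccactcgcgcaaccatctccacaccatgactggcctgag
Tnfaip2 promoter: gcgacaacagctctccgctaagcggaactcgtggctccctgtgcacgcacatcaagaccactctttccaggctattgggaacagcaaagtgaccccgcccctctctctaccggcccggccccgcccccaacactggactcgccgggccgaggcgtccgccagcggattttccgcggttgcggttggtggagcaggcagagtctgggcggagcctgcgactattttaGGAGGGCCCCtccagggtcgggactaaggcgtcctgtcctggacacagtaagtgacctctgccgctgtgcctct
Zc3h12a promoter: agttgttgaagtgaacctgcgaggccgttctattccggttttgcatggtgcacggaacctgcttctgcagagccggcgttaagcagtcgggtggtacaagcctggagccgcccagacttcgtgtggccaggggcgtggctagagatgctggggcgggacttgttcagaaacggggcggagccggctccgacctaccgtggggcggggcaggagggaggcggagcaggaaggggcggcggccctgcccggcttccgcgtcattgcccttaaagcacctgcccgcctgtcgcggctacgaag
Ikbke promoter: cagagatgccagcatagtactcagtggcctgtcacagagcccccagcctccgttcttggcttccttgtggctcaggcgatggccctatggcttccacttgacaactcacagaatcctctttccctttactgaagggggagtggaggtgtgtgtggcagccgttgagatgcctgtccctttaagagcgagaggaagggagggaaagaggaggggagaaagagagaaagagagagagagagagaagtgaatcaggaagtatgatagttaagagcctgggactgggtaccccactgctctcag

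The promoter table held 9 of the 10 genes, all but Map3k8, and 11 windows, since Tnfaip3 and Birc2 have 2 start sites each. The consensus was found in 4 of these 11 windows and in 8.46% of the 32851 promoter windows of the same length. The capitals in Tnip1 are 3 overlapping matches that together read GGGGAATTCCCC and begin 58 bases before the start site. Tnfaip3 has matches beginning 125 and 12 bases before its first start site, Ier3 has one beginning 92 bases before and Tnfaip2 one beginning 24 bases before. The windows of Birc2, Birc3 and Traf1 held no match either, nor did the second window of Tnfaip3. The AP-1 motif TGANTCA, searched on both strands, was in 2 of the 11 windows, the first of Tnfaip3 and that of Ikbke, and in 7.81% of all windows. These matches are letters in a sequence and show no binding.

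**Figure D1:**
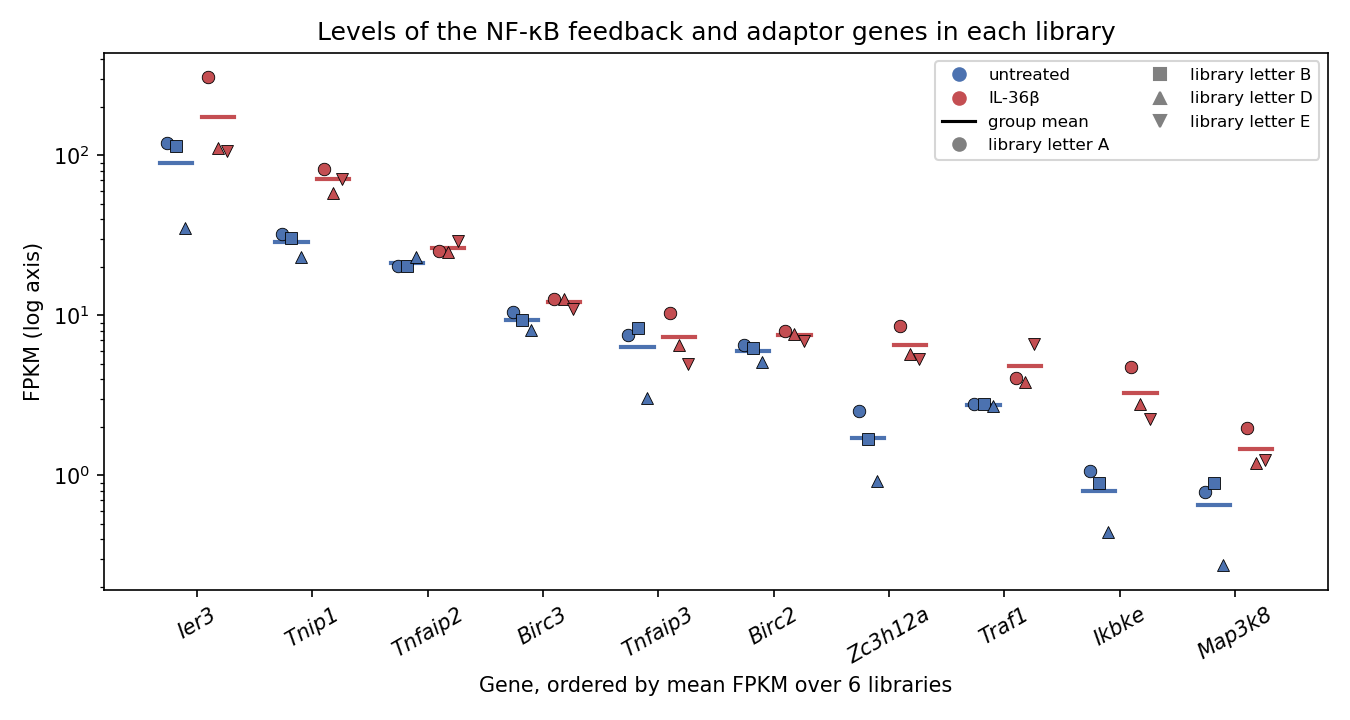
Level in FPKM (log axis) of each gene in each of the 6 libraries, with untreated in blue, IL-36β in red, marker shapes for the letter of the library name and bars for group means. Ier3 and Tnfaip3 overlap between the groups, and the lowest untreated point is library D0 in every gene but Tnfaip2.

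Of the genes of the ubiquitin-editing complex Tnip1 passed the threshold and Tnfaip3 did not, and the difference between them was not tested. Tnip1 encodes ABIN1, which binds ubiquitin chains and brings the deubiquitinase encoded by Tnfaip3 to them. Tnip1 (chromosome 11, 54910785 to 54962917, minus strand, GRCm38) stood at 32.2, 30.6 and 23.1 FPKM in the untreated libraries, in the order of replicates 1 to 3 used throughout, and at 82.3, 58.6 and 71.4 FPKM with IL-36β. The lowest IL-36β library was thus above the highest untreated one, and Tnip1 was the second most abundant of the 10 genes in both groups. Its fold was 2.59 in the A/B set and 2.76 in the D/E set. DESeq2 and edgeR on the reads recovered from FPKM also called it (adjusted p = 1.3e-10 and 0.0175), but leaving out any 1 library ended the limma call, with adjusted p from 0.0767 to 0.197. Over all genes tested, 0 to 0.0563% were then called higher.

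Tnfaip3 encodes the ubiquitin-editing enzyme A20, a central brake on NF-κB. It lies on chromosome 10 (19000910 to 19015657, minus strand) and stood at 7.55, 8.34 and 3.06 FPKM in the untreated libraries and at 10.3, 6.56 and 5.00 FPKM with IL-36β. The groups overlapped: IL-36β replicates 2 and 3 were below untreated replicates 1 and 2. The fold was 1.18 with a 95% interval from 0.64 to 2.20 (limma adjusted p = 0.837), a range that holds both a fall and a 2.20-fold rise. In the A/B set the fold was 1.28 and in the D/E set 1.75, and the fit that includes the set gave 1.499 (1.16 to 1.93, limma adjusted p = 0.187). Without untreated replicate 3 the log2 fold change was -0.17, and without IL-36β replicate 1 it was -0.02, so its direction rested on those libraries.

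Zc3h12a encodes Regnase-1, an endonuclease that degrades mRNAs of inflammatory cytokines. It lies on chromosome 4 (125118423 to 125127840, minus strand). It had the largest fold of the 10 in the limma fit of log2(FPKM + 0.5), while Ikbke was first in edgeR (4.04-fold against 3.79) and in DESeq2 (4.04 against 3.78). Its levels were 2.54, 1.68 and 0.925 FPKM in the untreated libraries, from 119, 98 and 41 reads, and 8.54, 5.76 and 5.32 FPKM with IL-36β, from 382, 273 and 279 reads. The groups did not overlap, and the lowest IL-36β library was above the highest untreated one. This 3.27-fold difference (95% interval 2.04 to 5.23) missed the threshold in the pooled test (limma adjusted p = 0.110), with a 2.75-fold range among the untreated libraries alone. In the fit that includes the set, the fold of Zc3h12a was 3.86 (2.95 to 5.04, limma adjusted p = 0.00593), and DESeq2 called it (adjusted p = 7.67e-07). The fold was 3.51 in the A/B set and 4.24 in the D/E set.

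Ier3 encodes a short-lived stress-response protein also known as IEX-1, a known target of NF-κB that affects cell survival. It was the most abundant of the 10 genes and lies on chromosome 17 (35821684 to 35822923, plus strand). Its levels were 119, 115 and 35.1 FPKM in the untreated libraries and 307, 111 and 107 FPKM with IL-36β. IL-36β replicates 2 and 3 thus lay just below untreated replicates 1 and 2, while untreated replicate 3 and IL-36β replicate 1 stood far from their groups. The pooled fold of 1.95 had a 95% interval from 0.78 to 4.89 (limma adjusted p = 0.589). Inside the library sets the fold was 2.62 in the A/B set and 3.07 in the D/E set. IL-36β replicate 1 is alone in its group in the A/B set, and untreated replicate 3 in the D/E set. The sets were drawn with these values known, so these folds and the set fit may overstate the evidence. In the fit that includes the set, the fold of Ier3 was 2.83 (2.43 to 3.30, limma adjusted p = 0.0026). In that fit 5 of the 10 genes were called higher, Tnip1, Zc3h12a, Ier3, Ikbke and Map3k8, where 0.674% of all genes tested were.

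**Figure D2:**
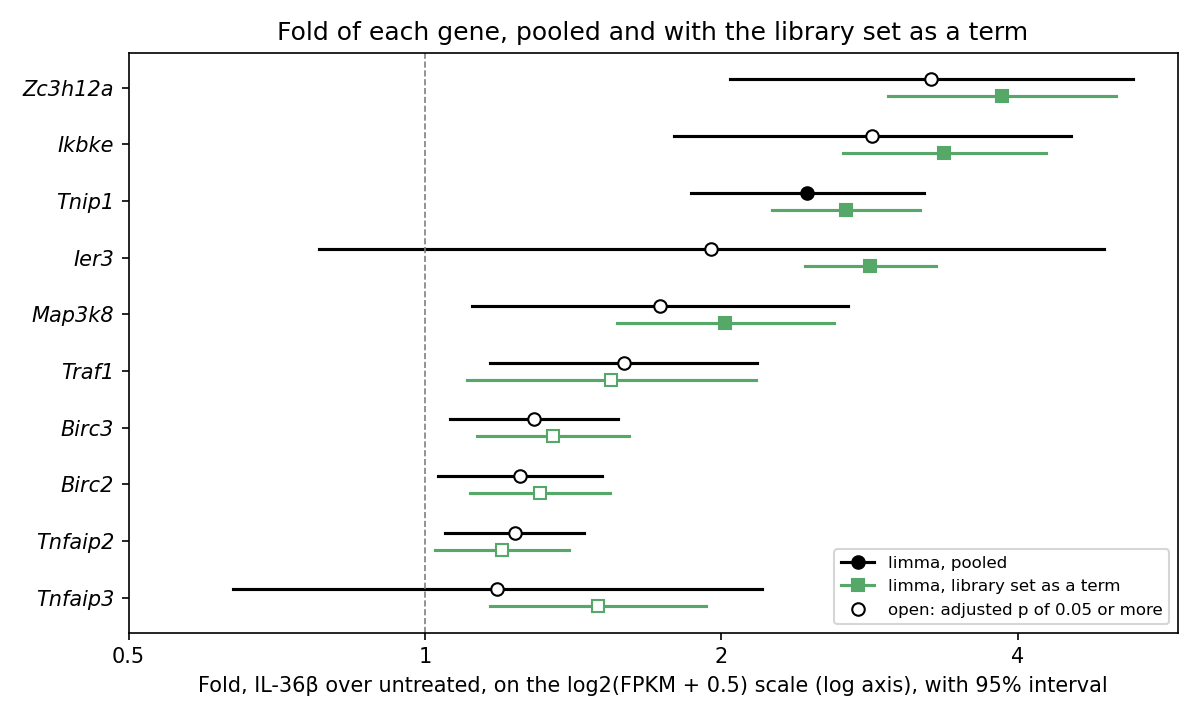
Fold of IL-36β over untreated (log axis) with its 95% interval for each gene, from the pooled limma fit (black circles) and from the fit that includes the library set (green squares). Filled symbols have an adjusted p under 0.05: Tnip1 in the pooled fit, and Tnip1, Zc3h12a, Ier3, Ikbke and Map3k8 with the set term.

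Birc2 and Birc3 encode the ubiquitin ligases cIAP1 and cIAP2, which build ubiquitin chains at TNF-type receptors and, with TRAF2 and TRAF3, keep the kinase NIK low. The genes are neighbours on chromosome 9, both on the minus strand: Birc2 at 7818227 to 7837064 and Birc3 at 7848699 to 7873186, with 11634 bases between them. Their annotated transcripts share 1.28% of the 50-base words of Birc3 and 1.42% of those of Birc2. Only exact words of that length were compared, and the share of reads that fit both genes was not measured.

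Birc3 stood at 10.4, 9.36 and 8.08 FPKM in the untreated libraries and at 12.7, 12.7 and 10.9 FPKM with IL-36β. Birc2 stood at 6.49, 6.23 and 5.14 FPKM in the untreated libraries and at 8.03, 7.66 and 6.90 FPKM with IL-36β. In both genes the groups did not overlap, by a narrow margin. The folds were 1.29 for Birc3 (95% interval 1.06 to 1.57, limma adjusted p = 0.378) and 1.25 for Birc2 (1.03 to 1.51, limma adjusted p = 0.432), and neither passed in limma, edgeR or DESeq2.

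The ratio of Birc3 to Birc2 tested whether the pair differed in response. On the log2 scale it was 0.65, 0.55 and 0.60 in the untreated libraries and 0.63, 0.69 and 0.62 with IL-36β, a difference of 0.05 (exact permutation test, two-sided, p = 0.3, adjusted over 3 ratios p = 0.3, where 0.1 is the smallest unadjusted p that 3 libraries against 3 can give). It was 0.02 without untreated replicate 2 and 0.03 without IL-36β replicate 2. Birc3 was the more abundant of the pair in all 6 libraries.

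Traf1 encodes an adaptor that joins TRAF2 and the cIAP proteins and lacks the RING domain of other TRAFs. It lies on chromosome 2 (34941750 to 34961772, minus strand). Its untreated libraries were the tightest of the 10 genes, at 2.79, 2.78 and 2.71 FPKM, and with IL-36β it stood at 4.05, 3.82 and 6.61 FPKM. IL-36β replicate 3 was the highest, while the other two lay close together, and all 3 were above every untreated library. The fold was 1.59 (95% interval 1.17 to 2.18, limma adjusted p = 0.311). DESeq2 called Traf1 (adjusted p = 0.0134), and it did not pass in the fit that includes the set (limma adjusted p = 0.268).

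The partner Traf2, a ubiquitin-chain adaptor of TNF receptors, was 4.30 ± 0.127 FPKM without and 5.88 ± 0.264 FPKM with IL-36β (SD, n = 3 per group), a fold of 1.33 (1.14 to 1.55, limma adjusted p = 0.197). The log2 ratio of Traf1 to Traf2 was -0.50, -0.57 and -0.60 in the untreated libraries and -0.43, -0.55 and 0.09 with IL-36β (difference 0.26, exact permutation test, two-sided, p = 0.2, adjusted p = 0.3). The groups overlapped in this ratio, and IL-36β replicate 3 stood alone above 0. Without that library the difference was 0.07.

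The kinases Ikbke and Map3k8 were the least abundant of the 10 genes. Ikbke encodes IKKε, an IκB kinase relative that acts with TBK1 in interferon and NF-κB signalling. It lies on chromosome 1 (131254343 to 131279606, minus strand) and stood at 1.07, 0.892 and 0.440 FPKM in the untreated libraries, from 157, 163 and 61 reads. With IL-36β it stood at 4.74, 2.78 and 2.26 FPKM, from 664, 412 and 371 reads, and the groups did not overlap. The fold was 2.85 (95% interval 1.79 to 4.53, limma adjusted p = 0.131). It was 3.55 in the A/B set and 3.20 in the D/E set. In the fit that includes the set, the fold of Ikbke was 3.37 (2.66 to 4.27, limma adjusted p = 0.00593), and DESeq2 called it (adjusted p = 2.39e-07). Gm28913, an antisense gene that overlaps Ikbke, had 20 reads in all libraries together.

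Tbk1, the partner kinase, was 13.7 ± 0.554 FPKM without and 13.2 ± 0.771 FPKM with IL-36β (SD, n = 3 per group), a fold of 0.97 (0.84 to 1.12, limma adjusted p = 0.865). The log2 ratio of Ikbke to Tbk1 was -3.17, -3.41 and -3.86 in the untreated libraries and -1.44, -2.11 and -2.22 with IL-36β. Every IL-36β library was above every untreated one, a difference of 1.56 on the log2 scale (exact permutation test, two-sided, p = 0.1, adjusted p = 0.3). This p is the smallest the design allows. Tbk1 remained the more abundant transcript of the pair in all 6 libraries.

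**Figure D3:**
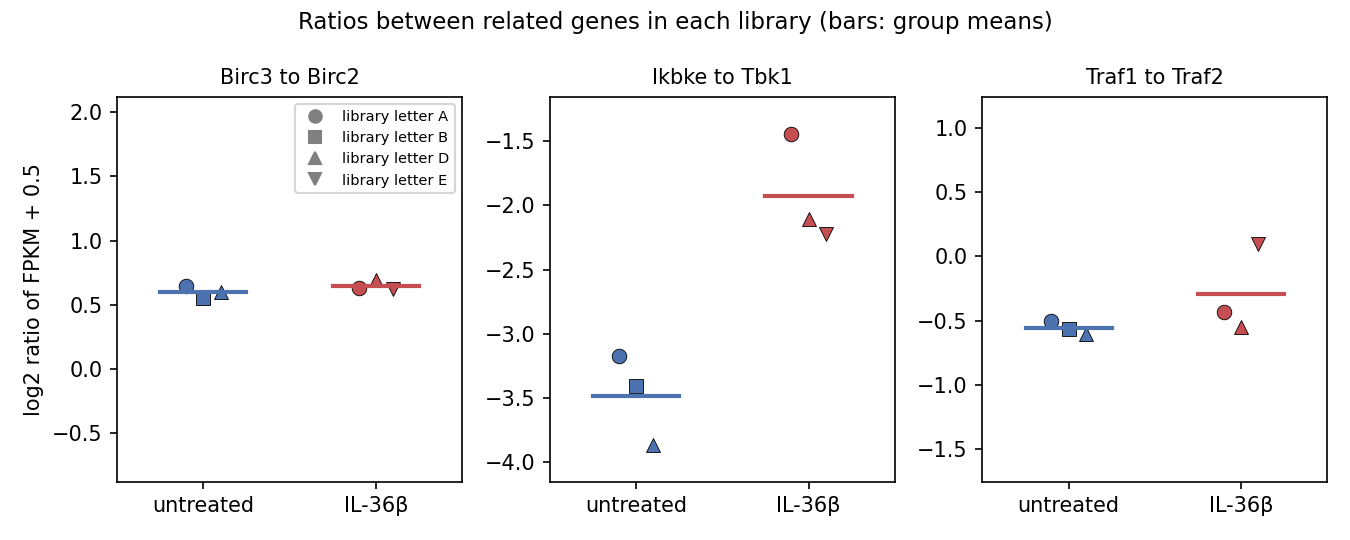
Log2 ratio of FPKM + 0.5 for Birc3 to Birc2, Ikbke to Tbk1 and Traf1 to Traf2 in each library, with bars for group means and the same axis span in each panel. The groups separate for Ikbke to Tbk1, by 1.56 in the means, and overlap for the other ratios.

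Map3k8 encodes TPL2 (COT), the kinase that links NF-κB1 p105 to the ERK pathway. It lies on chromosome 18 (4331327 to 4353015, minus strand) and was the lowest of the 10 genes, at 0.793, 0.899 and 0.274 FPKM in the untreated libraries and 1.97, 1.19 and 1.25 FPKM with IL-36β. These rest on 58, 82 and 19 reads and on 138, 88 and 102 reads. The groups did not overlap. The fold was 1.73 (95% interval 1.12 to 2.69, limma adjusted p = 0.397), and in the fit that includes the set it was 2.02 (1.57 to 2.60, limma adjusted p = 0.0468).

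Tnfaip2 encodes a TNF-inducible protein also called M-Sec, which is related to exocyst subunits and takes part in forming membrane nanotubes. It lies on chromosome 12 (111442469 to 111455018, plus strand) and stood at 20.5, 20.4 and 23.0 FPKM in the untreated libraries and at 25.3, 24.97 and 29.1 FPKM with IL-36β. It was the only one of the 10 in which untreated replicate 3 was the highest untreated library. The groups did not overlap, and the fold was 1.23 (95% interval 1.05 to 1.45, limma adjusted p = 0.384). Neither that fit nor DESeq2 called it.

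In order of mean level in untreated cells the genes were Ier3, Tnip1, Tnfaip2, Birc3, Tnfaip3, Birc2, Traf1, Zc3h12a, Ikbke and Map3k8. Neighbours whose ranges overlapped between libraries were Birc3 and Tnfaip3, Tnfaip3 and Birc2, Zc3h12a and Ikbke, and Ikbke and Map3k8. With IL-36β the order was Ier3, Tnip1, Tnfaip2, Birc3, Birc2, Tnfaip3, Zc3h12a, Traf1, Ikbke and Map3k8, with overlapping ranges for each pair of neighbours from Birc2 to Ikbke. Zc3h12a was below Traf1 in all 3 untreated libraries and above it in 2 of 3 IL-36β libraries. DESeq2 called 4 of the 10 genes higher (Tnip1, Zc3h12a, Traf1 and Ikbke), where it called 1.29% of the 12372 genes with an adjusted p, and edgeR called 1, Tnip1, where it called 0.262% of 12618.

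The authors' deposited table holds 660 genes, all with an unadjusted p under 0.05 in it, beside 54532 in the expression table. It holds 5 of the 10, each with a positive fold change, as have 425 of the 660, while 235 have a negative one. The group means in the authors' deposited table are off by over 1% from the averages of the libraries analysed here in 594 genes for IL-36β and 573 for the untreated group. Its fold changes are therefore not given, and its signs and p-values may rest on other libraries. In the authors' deposited table the p-values are 0.00689 for Ikbke, 0.0114 for Tnip1, 0.0124 for Zc3h12a, 0.0270 for Map3k8 and 0.0325 for Traf1, and the adjusted p is 0.999 for every gene.

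Other genes of the pathway were read from lists chosen for function and not for how their genes moved. Beside each list, the genes at an unadjusted p under 0.05 are named after their values were seen. Over all genes tested, limma called 0.166% higher and 0.0159% lower, so no call in a short list says little about that list. At an unadjusted limma p under 0.05, 5.96% were higher and 4.41% lower. DESeq2 called 1.29% higher, and 100 of 12372 lower. None of 11 measured genes of ubiquitin editing passed in limma or DESeq2 (1 at an unadjusted limma p under 0.05, Otulin, which cuts linear ubiquitin chains, with a fold of 1.21), with a median log2 fold change of -0.04. Its most abundant members were Rnf11 and Tax1bp1, which work with A20. Rnf11 was 54.7 ± 7.36 and 51.5 ± 3.79 FPKM and Tax1bp1 20.8 ± 2.22 and 18.5 ± 2.60 FPKM in untreated and IL-36β cells. None of the 12 TRAF and RIP adaptors passed in limma or DESeq2 (1 at an unadjusted p under 0.05, Traf2; median log2 fold change 0.08). The most abundant of them, Traf7 and the caspase-8 inhibitor gene Cflar, had folds of 1.00 (0.88 to 1.15) and 1.02 (0.82 to 1.25). Among 13 IKK, TAK1 and NIK kinases and partners none passed in limma or DESeq2 (1 at an unadjusted p under 0.05, Map3k7, which encodes TAK1, with a fold of 0.83; median -0.05), and the most abundant, Map3k3 and Tbkbp1, had folds of 0.99 (0.78 to 1.26) and 1.05 (0.88 to 1.26).

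The same shares of all genes stand beside the next counts, in which each named gene was higher. They are 0.166% called higher in limma, 5.96% higher at an unadjusted limma p under 0.05, and 1.29% called higher in DESeq2. Of 8 measured IAP and survival genes none passed in limma (2 at an unadjusted p under 0.05, Gadd45b and Sod2) and DESeq2 called 2 higher (median log2 fold change 0.11). Those 2 were the same: Gadd45b, a stress-response gene, had a fold of 1.49 (1.25 to 1.77, limma adjusted p = 0.131), and Sod2, the mitochondrial superoxide dismutase, also had a fold of 1.49 (1.25 to 1.78, limma adjusted p = 0.131). The most abundant, the survival genes Bcl2l1 and Mcl1, had folds of 1.12 (0.94 to 1.33) and 1.04 (0.89 to 1.21). For mRNA decay and MALT1 none of 9 measured genes passed in limma or DESeq2 (2 at an unadjusted p under 0.05, Zfp36l1 and Zc3h12c, with folds of 1.48 and 1.23; median -0.01). Its most abundant members, Zfp36l2, which binds AU-rich mRNAs, and Bcl10, the MALT1 partner, had folds of 0.98 (0.79 to 1.22) and 1.15 (0.98 to 1.36). Of 14 genes of the exocyst list none passed in limma (median 0.00). At an unadjusted limma p under 0.05 were 2, Rala and Ralb, which encode small GTPases and not exocyst subunits. DESeq2 called Ralb, with a fold of 1.34 (1.15 to 1.56, limma adjusted p = 0.186). The other most abundant member, Rala, had a fold of 1.16 (1.00 to 1.35).

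Of 11 measured genes of the NF-κB subunits and IκB proteins, 2 rose and none fell, all 11 fitted fold changes were above 0, the groups did not overlap in 10, and the median log2 fold change was 0.80. Over all genes tested, 0.166% were called higher, 50.5% had a fold change above 0, 8.95% were higher without overlap, and the median was 0.00. Nfkbia, which encodes IκBα, rose 1.89-fold (limma adjusted p = 0.0275), and Bcl3, a nuclear partner of NF-κB p50, rose 2.67-fold (limma adjusted p = 0.0359). DESeq2 called 8 of the 11 higher, beside 1.29% of all genes. Leaving out any 1 library left 0 called in limma, beside 0 to 0.0563% of all genes called higher.

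**Figure D4:**
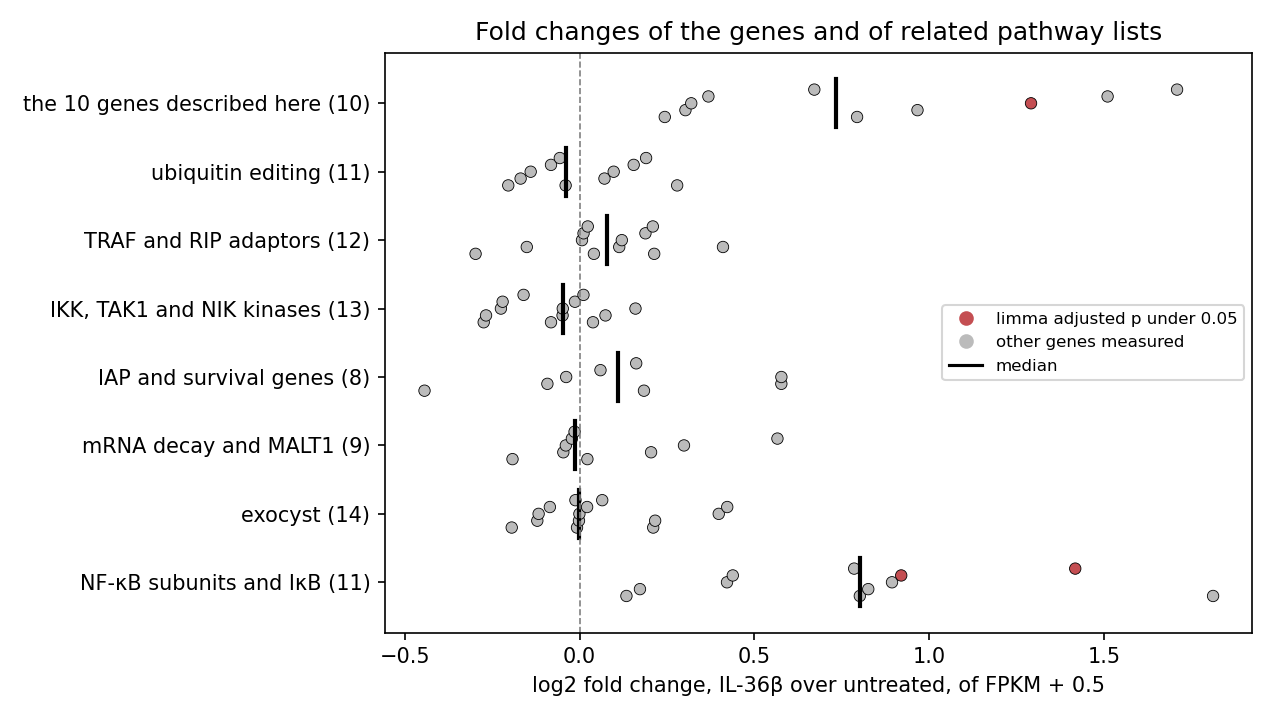
Log2 fold change of IL-36β over untreated for the 10 genes and for the measured genes of each pathway list (number in brackets), with red points for a limma adjusted p under 0.05 and black bars for medians. The medians of the 10 genes (0.73) and of the NF-κB subunits and IκB proteins (0.80) lie apart from those of the other lists, which run from -0.05 to 0.11.

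Across the 6 libraries, the gene whose profile was most like the mean standardized log2 profile of the 10 was Nfkbiz, a nuclear IκB protein (Pearson r = 0.997 over 6 libraries, among 6994 other genes with a mean of at least 5 FPKM). Its levels were 4.59, 4.18 and 1.56 FPKM without and 15.8, 10.8 and 10.9 FPKM with IL-36β, so it too was lowest in untreated replicate 3 and highest in IL-36β replicate 1. Next were Lcn2, which encodes the siderophore-binding protein lipocalin-2 (r = 0.995), and Acod1, the enzyme that makes itaconate (r = 0.994). These values describe the 6 libraries and share their treatment and library differences.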

How the data were processed

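RNA libraries of BMVECs (3 untreated, 3 with IL-36β) were prepared, per the labels' protocols, with a kit that keeps strand; whether counting used it is not given in the sources. The submitters' processing notes name HISAT2 2.05, featureCounts 1.50-p3, StringTie, fastp, the build GRCm38 and DESeq2 1.38.3, without roles. The authors deposited FPKM for all genes. For 660 genes they also deposited raw counts, a signal (counts over a size factor), log2 fold changes and p-values; 8 further columns in that table, of 4 libraries with no sample label, were not used. Deposited FPKM times gene length in kilobases and 1 factor per library (15.4 to 20.3), taken from the deposited counts, gave whole reads (within 0.01) for 100% of values over all 54532 genes, equal to the deposited counts in all 660. In every library that factor was 16.8 times the size factor, so these FPKM follow the size factors and not the number of reads assigned.

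Columns were matched to samples by library name and groups taken from titles. limma 3.58.1 (R 4.3.3, trended prior, two-sided) was fitted to log2(FPKM + 0.5) of 12618 genes with at least 0.5 FPKM in at least 3 of 6 libraries. Alternatives included edgeR 4.0.16 and DESeq2 1.42.0 on the recovered reads. The genes, lists and alternatives were chosen with earlier results of these data known. Named were all 10 genes, up to 4 called genes per list or its 2 most abundant, the ratio partners and the 3 genes most like the mean profile. No library looked like a second deposit of another (chi-square over degrees of freedom 10.1 to 37.2 between replicates). The lowest of the 10 genes, Map3k8, rests on 19 to 138 reads per library.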

Additional observations from a re-analysis of the deposited data

How the results depend on the processing

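The number of the 10 genes called higher was 1 in the main test. Tnip1 also kept its call with a pseudocount of 1, a filter of at least 1 FPKM and limma's robust option. Its limma adjusted p was 0.0419 to 0.0472 in these. The number was 0 with a pseudocount of 0.1, with quantile normalization, with TPM scaling and with limma without the trend. It was also 0 with no filter beyond an FPKM above 0, where no gene of the whole table was called. Only Tnip1 lost its call in the settings with 0 called, with limma adjusted p from 0.0539 to 0.155. Over all genes tested, 0.166% were called higher in the main test. The share was 0.166% with a pseudocount of 1 and with the robust option, and 0.196% with the filter of at least 1 FPKM. It was 0.151% with a pseudocount of 0.1 and with quantile normalization, 0.103% with TPM scaling and 0.119% without the trend. Leaving out each library in turn gave 0 called genes of the 10, beside 0 to 0.0563% of all genes called higher. The count was 4 in DESeq2 and 5 with the library set as a term, beside 1.29% and 0.674% of all genes. No gene of the 10 was called lower in any alternative.

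Whether the title numbers pair the libraries was not settled. Deviations of same-numbered libraries from their group means correlated at 0.21, -0.14 and 0.21 across genes. Deviations cancel out within each group, so these correlations and the next ones depend on each other. The 4 pairs of an untreated and an IL-36β library from the same set correlated at 0.21 to 0.39, and the 5 pairs across sets at -0.46 to -0.01. With the title number as a replicate block 1 gene was called, Zc3h12a (adjusted p = 0.0357) in place of Tnip1 (0.0715), beside 0.0951% of all genes. With the library letter as a replicate block 4 were called, beside 0.531% of all genes. B0 and E24 are alone under their letters, so the folds of that fit rest on A0, A24, D0 and D24 only. Its calls may thus overstate the evidence. Of the NF-κB subunits and IκB proteins 0 were called with the title number as a block. With the number as a block the log2 ratios of Birc3 to Birc2, Ikbke to Tbk1 and Traf1 to Traf2 differ by the same 0.05, 1.56 and 0.26 by construction, and the exact permutation p was 0.5, 0.25 and 0.25, where 0.25 is the smallest that 3 pairs can give. As libraries were left out in turn these differences ranged from 0.02 to 0.07, from 1.32 to 1.71 and from 0.07 to 0.39.

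Tnfaip3 changed sign without untreated replicate 3 (log2 fold change -0.17) and without IL-36β replicate 1 (-0.02), and ranged from -0.17 to 0.48 as libraries were left out in turn. The other 9 genes kept a fold change above 0 in every alternative run, and the median of the 10 ranged from 0.46 to 0.85 when a library was left out. TPM scaling moved the median of all genes to -0.08. For the lowest genes, such as Map3k8 with 19 reads in untreated replicate 3, depth limits the precision.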
